A study of Mus musculus with 6 samples.

Results

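The Dlk1-Dio3 cluster is a set of miRNAs in an imprinted domain of mouse chromosome 12, and 36 of the 599 mature miRNA probes of the array carry one of its names. The members were taken by name, without star strands (the passenger arm of a hairpin), from a fixed set of miRNA numbers of the cluster. In the renal cortex of 6 C57Bl6 mice, 31 of the 36 members were not above background in any sample, and miR-377 alone gave a bright signal, in 2 of the 6. Controls were 3 mice without treatment. The other 3, called treated, ate a diet of 0.05% sodium for 10 days and drank water with 0.5 g/L captopril, a drug that blocks angiotensin converting enzyme. Small RNA of each mouse was tailed, tagged and stained with Cy3 (control replicates 1 and 3, treated replicate 2) or Cy5 (control replicate 2, treated replicates 1 and 3), so dye was not balanced over the groups. Control replicate 3 and treated replicate 1 were female and the others male. Age was 5 months in treated replicate 1 and 3.5 months in the other mice.

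In the Dlk1-Dio3 domain the protein-coding genes are expressed from the paternal chromosome, and the long non-coding RNAs Meg3, Rian and Mirg, with the miRNAs processed from these transcripts or lying near them, from the maternal chromosome. The miRNAs are known for expression in the embryo, the placenta and the adult brain, and for low levels in most other adult tissues. A few of them have been followed in kidney cells: miR-377 in mesangial cells in diabetic nephropathy, where it was linked to fibronectin production, miR-433 in mouse renal fibrosis, miR-382 in fibrosis of tubular cells, and miR-494 in ischaemic injury of the mouse kidney.

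The target sequences deposited with the array matched a mature miRNA of the RefSeq table (build GRCm38.p6) letter for letter for 31 of the 36 members, and the other 5 (miR-337-3p, miR-337-5p, miR-376c, miR-485 and miR-487b) are given by name and array sequence only. All 31 matched members lie on the plus strand of chromosome 12, between miR-431 and miR-410, over 153.3 kb (chr12:109590459-109743784). The 5 members that were above background in at least 1 sample are printed because the results turn on them. Capitals mark the seed, bases 2 to 8 from the 5′ end, which pairs with target mRNAs.
miR-377: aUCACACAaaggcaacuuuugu
miR-329: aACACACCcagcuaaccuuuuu
miR-134: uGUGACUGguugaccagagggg
miR-379: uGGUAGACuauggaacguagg
miR-341: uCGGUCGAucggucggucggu

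By RefSeq these are miR-377-3p (chr12:109740553-109740574), miR-329-3p (chr12:109713541-109713562), miR-134-5p (chr12:109734145-109734166), miR-379-5p (chr12:109709065-109709085) and miR-341-3p (chr12:109611556-109611576). The 5 share no seed, and their G and C content ran from 36.4% in miR-377 to 66.7% in miR-341, against 33.3% to 72.7% over all 36 members and a median of 45.5% over all probes. No probe on the array was closer to the miR-377 target than 7 base edits, the distance of miR-329 and miR-381.

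Some of the nearest relatives within the cluster are printed to show how little some members differ, since signal of one could be read on the probe of another.
miR-376a: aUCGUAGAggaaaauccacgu
miR-376b: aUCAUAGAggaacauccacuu
miR-376c: aACAUAGAggaaauuucacgu
miR-300: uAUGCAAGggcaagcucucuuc
miR-381: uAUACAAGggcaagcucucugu

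MiR-376a and miR-376b differed by 3 base edits, and so did miR-300 and miR-381. MiR-376a and miR-376c differed by 4, as did miR-495 and miR-543, which are not printed. Yet all 36 members had distinct seeds. Of the seeds, 2 were shared with a probe outside the cluster: that of miR-329 with miR-362-3p and that of miR-495 with miR-1192, neither of which was above background in 3 samples.

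Each probe was printed in 5 spots, and each sample had 669 empty spots. Above background means that the mean log2 intensity of the 5 spots lay over that of the empty spots of the same sample by more than 3 of their SD, which corresponded to 1.16 to 1.31 times the median empty spot. Intensities are given below as multiples of the median empty spot of the same sample, before any normalisation between samples. Between 0 and 3 of the 669 empty spots of a sample exceeded the threshold on their own. With Cy3 the median empty spot had an intensity of 219 to 459, with Cy5 of 34.4 to 51.2, and the brightest probe reached 96.4 to 196 times it in Cy3 and 1033 to 1357 times in Cy5. For the tissue label, 7 miRNAs known from renal tubules were read, and all were above background in at least 3 samples, against 32.9% of all probes. All 5 miRNAs listed for vascular and mesenchymal cells were so too, so this count does not set renal cortex apart from other tissues. Among the 7 of renal tubules miR-192 lay at 14.4 to 261 times the empty spots. MiR-204 lay at 0.965 to 1.48 times, above background in control replicate 3 and treated replicates 1 and 3 only.

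Fewer members of the cluster were above background than other probes. In at least 1 of the 6 samples 5 of 36 were, against a background of 40.9% of all probes, and in at least 3 samples 2 of 36 were (miR-329 and miR-377), against 32.9%. No member was above background in all 6 samples, as 19.5% of all probes were. By sample, 1 member was above background in control replicate 1 (miR-329; 33.2% of all probes), 1 in control replicate 2 (miR-377; 21.2%), 1 in control replicate 3 (miR-329; 31.9%), 5 in treated replicate 1 (38.2%), none in treated replicate 2 (22.0%) and 1 in treated replicate 3 (miR-377; 33.6%). In bulk cortex, fewer cells that make a miRNA and less of it per cell cannot be told apart. The counts moved with the threshold. At 2 SD they were 17 in at least 1 sample and 5 in at least 3, and at 5 SD miR-377 alone remained, above background in 2 samples. Treated replicate 1 carried 3 of the 5 members by itself: without it the counts were 2 and 0.

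**Figure D1:**
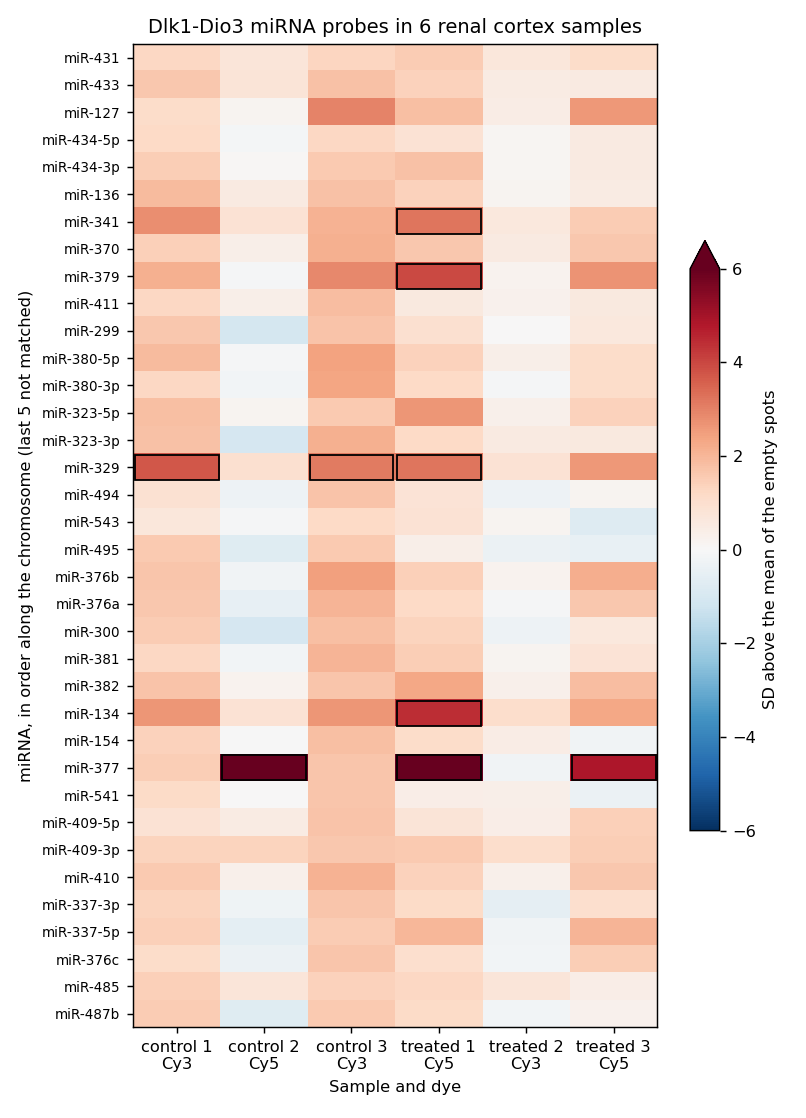
Distance of each of the 36 probes (vertical axis, in order along the chromosome, the 5 unmatched members last) from the empty spots of each sample (horizontal axis, with dye), in SD of the empty spots, with colour cut off at 6 and outlined cells above the threshold of 3. Outlines are found at miR-341, miR-379, miR-329, miR-134 and miR-377, and the outlined cells of miR-377 are the 3 Cy5 samples.

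The 31 members never above background lay close to the empty spots in every sample. Their intensities ran from 0.910 to 1.23 times the median empty spot over the 6 samples, with medians of 1.09 in control replicate 1, 0.995 in control replicate 2, 1.09 in control replicate 3, 1.10 in treated replicate 1, 1.01 in treated replicate 2 and 1.05 in treated replicate 3. The other miRNA probes of the array that were never above background had medians of 1.08, 0.968, 1.09, 1.06, 1.01 and 1.02 in the same samples. Members and other such probes were thus within a few percent of each other in each sample, and both moved together from sample to sample. Both sets hold only probes never above background, so the threshold capped their values and their closeness follows in part from that choice. In SD over the empty spots the median of the members was the higher in each sample but control replicate 3 (1.72 against 1.73). In treated replicate 1 it was 1.24 against 0.749. All 31 lay above the mean of the empty spots in control replicates 1 and 3 and treated replicate 1, but 14 of 31 did so in control replicate 2 and 22 in treated replicate 2, which were also the samples with the lowest share of all probes above background. In treated replicate 3, 27 of 31 did so.

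**Figure D2:**
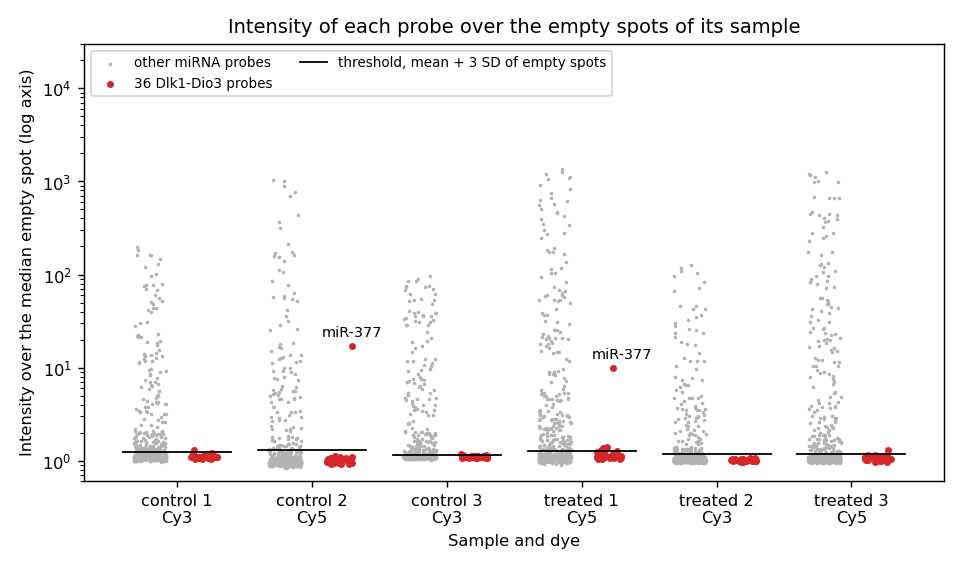
Intensity of every probe over the median empty spot of its sample (vertical, log axis) for the 36 cluster probes in red and the other probes in grey, with the detection threshold of each sample as a line. Cluster probes gather at the level of the empty spots, and miR-377 stands at 16.9 in control replicate 2 and 9.84 in treated replicate 1.

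Of the 4 miRNAs named above for work in kidney cells, 3 were above background in no sample. MiR-433 lay between 1.03 and 1.11 times the empty spots over the 6 samples, miR-382 between 1.02 and 1.20, and miR-494 between 0.974 and 1.09. MiR-127, which lies opposite the Rtl1 gene and guides cleavage of its mRNA in mouse placenta, came closest to the threshold without passing it. It lay 2.98 SD over the empty spots in control replicate 3, at 1.16 times their median, with 3 of its 5 spots over the threshold. In control replicate 2 it lay 0.143 SD over the empty spots. Of the other miRNAs that lie opposite Rtl1, miR-431 and miR-136 reached at most 1.12 and 1.13 times. MiR-434, between miR-127 and miR-136 on the chromosome, reached at most 1.07 times with its 5p arm and 1.15 times with its 3p arm. The miR-376 family, whose members are known substrates of A-to-I editing in the seed, reached at most 1.11 (miR-376a), 1.13 (miR-376b) and 1.09 times (miR-376c). For the hairpins with both arms among the members, neither arm was above background. The highest of these arms was miR-323-5p, 2.64 SD over the empty spots in treated replicate 1.

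MiR-377 was bright in 2 samples. Its intensity was 1.10, 16.9 and 1.09 times the median empty spot in control replicates 1, 2 and 3, and 9.84, 0.987 and 1.30 times in treated replicates 1, 2 and 3. Both groups held 1 bright sample and at least 1 sample at the level of the empty spots, so the groups overlapped. Treated replicate 3 was dim but above background, 4.86 SD over the empty spots. In control replicate 2 only 33 of the 599 probes were brighter, and in treated replicate 1 only 82. The signal was present in all 5 spots, which were printed in 5 different places on the array: they ran from 13.3 to 19.6 times the median empty spot in control replicate 2 and from 8.51 to 11.5 times in treated replicate 1. In treated replicate 3, 4 of 5 spots were over the threshold, and the highest was 1.44 times. Of the 20 spots that touched a miR-377 spot, 10 were over the threshold in each of control replicate 2 and treated replicates 1 and 3, against 10, 11 and 10 in the Cy3 samples. The SD of brightness within a miR-377 spot was 18.0% of its mean in control replicate 2 (median of 5 spots) and 13.6% in treated replicate 1, whereas miRNA spots of like brightness, within 1.5-fold of the range of these spots, had medians of 10.6% and 9.63% and a 90th percentile of 14.0% and 12.7%. The miR-377 spots were thus less even than most spots as bright.

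**Figure D3:**
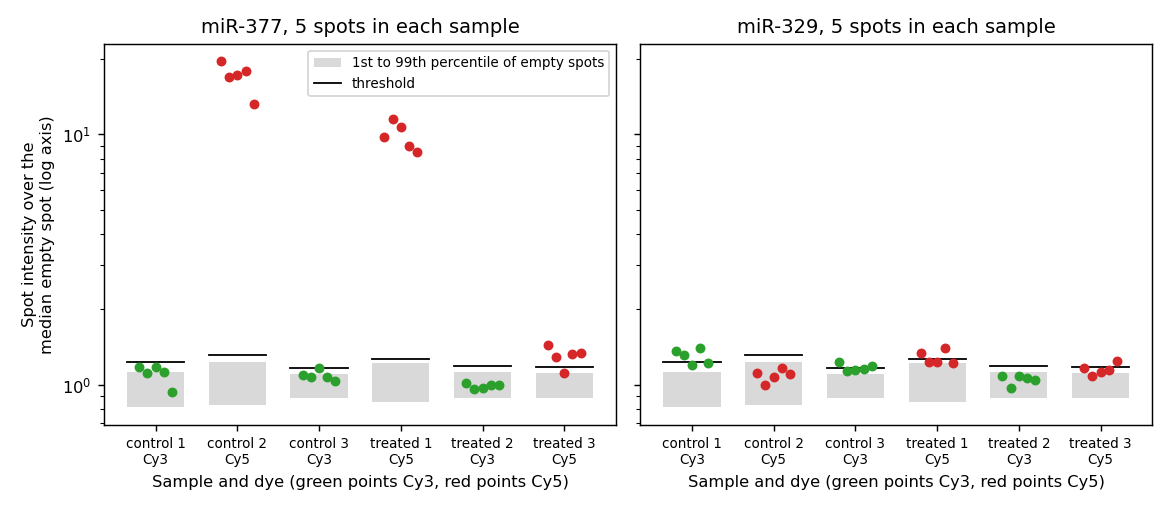
Intensity of each of the 5 spots of miR-377 (left) and miR-329 (right) over the median empty spot of the sample (vertical, log axis), by sample and dye (green Cy3, red Cy5), with the 1st to 99th percentile of the empty spots in grey and the threshold as a line. All 5 miR-377 spots are raised in control replicate 2 and treated replicate 1, and miR-329 spots straddle the threshold.

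The 3 samples in which miR-377 was above background were the 3 Cy5 samples, and it was above background in no Cy3 sample. It was the only miRNA of 599 with that pattern (0.167%), and miR-712* was the only one with the opposite pattern (0.167%). In each Cy5 sample, all probes brighter than miR-377, and as many next below it, were looked up in the Cy3 samples. The brighter ones run up to the brightest probe of the sample, at 1033 to 1357 times the empty spots. The counts thus do not show how often a probe as bright as miR-377 was above background with Cy3. All 33 probes brighter than miR-377 in control replicate 2, and all 33 next below it, were above background in all 3 Cy3 samples. So were all 82 probes brighter than it in treated replicate 1, and 40 of the 82 next below it. In treated replicate 3, where miR-377 was dim, 122 of the 180 brighter probes were above background in all 3 Cy3 samples. Of the 180 next below it there, 2 were, and 145 were above background in no Cy3 sample. In limma with group and dye on quantile-normalised log2 intensities, the Cy5 minus Cy3 difference of miR-377 was 3.37 (SE 1.02, 95% interval 0.82 to 5.92), the largest of 197 tested miRNAs in size. Its adjusted p = 0.991 in limma, 0% of the tested miRNAs were called higher or lower in Cy5, and 4 had an unadjusted p under 0.05. With 75th percentile scaling the difference was 2.84 and its adjusted p = 0.0105 in limma. Over the alternatives the adjusted p in limma ran from 0.0105 to 0.999. The difference was read after the levels had been seen, and miR-377 passed the filter of 3 samples through the Cy5 samples alone. The direction, rank and p of this difference thus draw on the values that admitted it, and are given as description only. The difference was 1.42 without control replicate 2, 5.32 without treated replicate 2 and 7.37 with the median empty spot subtracted. Since no Cy3 sample measured miR-377 above background, its level there is a bound. The mean of the 3 Cy5 samples was 9.06 on the normalised log2 scale, against a measured 6.36 in Cy3. Against the Cy3 bound of 6.81 it was at least 4.75-fold higher. The dye groups compared are those in which miR-377 was and was not above background, so the direction was set beforehand. Treated replicate 3, at 6.69, lay below the bound, so the fold holds for the mean and not for each Cy5 sample. The fold rests on control replicate 2: without it the Cy5 mean was 7.74 and at least 1.90-fold higher. Without treated replicate 3 the Cy5 mean was 10.24 and at least 10.8-fold higher. Which property of the Cy5 samples the signal follows was not tested.

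The neighbours of miR-377 on the chromosome showed no such signal. MiR-541, 1.87 kb downstream, reached at most 1.09 times the median empty spot, and miR-154, 2.12 kb upstream, at most 1.09 times. MiR-496, which is outside the member list and lies 1.39 kb upstream, reached 1.08 times. These miRNAs and miR-377 lie in the stretch of Mirg, a long non-coding RNA from which the hairpins are processed. The authors' deposited processed intensities of miR-377 had the same pattern, with 24, 3123 and 13 in control replicates 1, 2 and 3 and 399, 16 and 37 in treated replicates 1, 2 and 3, where the median miRNA of a sample read 17 to 19.

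The other 4 members above background were dim. MiR-329, a miRNA known from dendrite growth in rat neurons, lay at 1.30, 1.09 and 1.17 times the empty spots in control replicates 1, 2 and 3 and at 1.28, 1.05 and 1.15 times in treated replicates 1, 2 and 3. It was above background in control replicates 1 and 3 and treated replicate 1, where 3, 2 and 2 of its 5 spots passed the threshold. With the median of the 5 spots in place of the mean it was still above background in at least 1 sample, but no longer in 3.

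MiR-134, which limits dendritic spine size in rat neurons, lay at 1.20, 1.08 and 1.14 times in control replicates 1, 2 and 3 and at 1.41, 1.06 and 1.13 times in treated replicates 1, 2 and 3. MiR-379, the first hairpin of the long miR-379 to miR-410 group, which has been followed in mouse diabetic nephropathy, lay at 1.15, 0.995 and 1.15 times in control and at 1.36, 1.01 and 1.16 times in treated replicates 1, 2 and 3. MiR-341 lay at 1.21, 1.08 and 1.11 times in control and at 1.28, 1.03 and 1.09 times in treated replicates 1, 2 and 3. Relative to the empty spots each of these 3 was highest in treated replicate 1 and above background there alone, with 5, 4 and 3 of its 5 spots over the threshold. On the normalised log2 scale none of them was highest there. MiR-134 read 6.61 against 6.67 in control replicate 2, and miR-341 read 6.54 against 6.65 in control replicate 2. MiR-379 read 6.59 against 6.61 in control replicate 3. Treated replicate 1 was the sample with the most probes above background (229 of 599), and also the only mouse of 5 months. The part of these properties in the calls was not tested.

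Treated and control mice were compared for the 2 members that were above background in at least 3 samples, in the same limma fit with a dye term over 197 miRNAs. Neither passed an adjusted p of 0.05, nor did any other of the 197 (0%), and an unadjusted p under 0.05 was reached by 1 (0.508%). MiR-377 had a control mean of 8.16 ± 3.07 and a treated mean of 7.26 ± 1.33 on the normalised log2 scale (SD, n = 3 per group), a treated minus control difference of -2.02 (SE 1.02, 95% interval -4.56 to 0.53, adjusted p = 0.995 in limma). Within Cy3 the difference was -0.07 and within Cy5 -3.97, and within pairs of same-numbered samples it was 2.38, -5.39 and 0.33. The value rests on control replicate 2, which alone represents the controls in Cy5. Without that sample the difference was -0.07, without treated replicate 2 it was -3.97, without treated replicate 3 it was -1.29, and without a dye term it was -0.89.

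MiR-329 lay at 6.72, 6.70 and 6.65 on the normalised log2 scale in control replicates 1, 2 and 3 and at 6.54, 6.54 and 6.57 in treated replicates 1, 2 and 3. All treated samples were below all control samples, as was so for 2.03% of the tested miRNAs, while 2.54% had all treated above all control samples. The difference was -0.15 (SE 0.20, 95% interval -0.65 to 0.36, adjusted p = 0.995 in limma), with -0.14 within Cy3 and -0.15 within Cy5. These values describe a probe at the edge of the background, and on the intensities before normalisation the groups overlapped. The median difference was -0.01 over all 197 tested miRNAs.

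**Figure D4:**
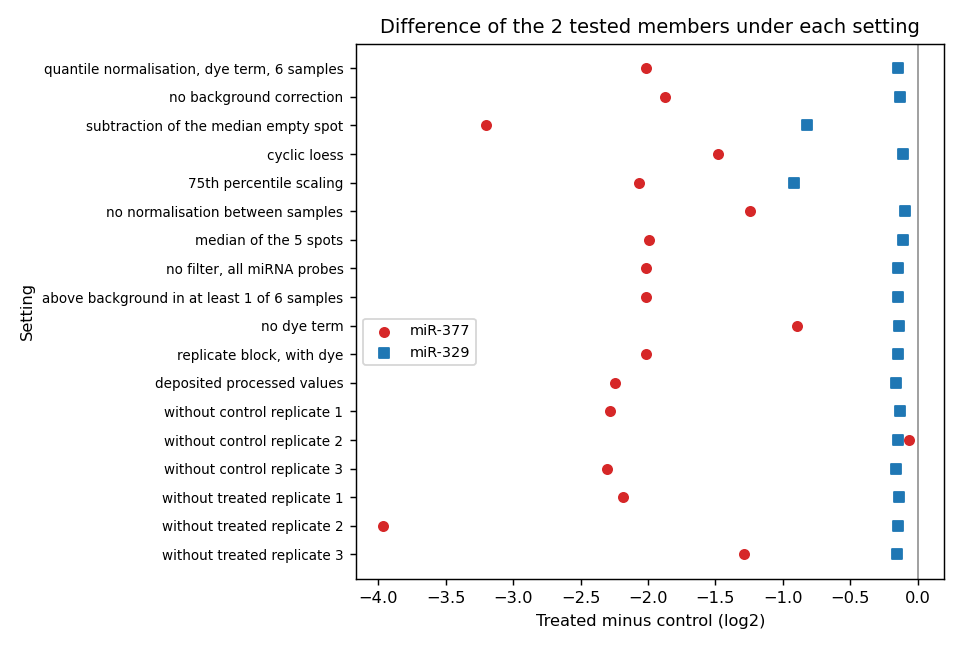
Treated minus control difference (horizontal, log2) of miR-377 (red circles) and miR-329 (blue squares) under each setting of the fit (vertical). MiR-377 runs from -3.97 to -0.07 and miR-329 from -0.92 to -0.10, and no value passed an adjusted p of 0.05.

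Without a filter on low values, the 36 members had treated minus control differences with a median of -0.01, as did all 599 probes with -0.004. Of the members 14 had a difference above 0 and 22 below, and apart from miR-377 the differences ran from -0.15 to 0.06. Apart from miR-377 their normalised log2 levels spanned only 6.22 to 6.83 over all samples, so these differences are between values at background.

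Other products of the cluster, from a list of names, were compared with the share of all probes, of which 40.9% were above background in at least 1 sample and 32.9% in at least 3. Of 13 star strands of members on the array, 1 was above background in any sample and none in 3: miR-299*, at 1.30 and 1.23 times the empty spots in control replicates 1 and 3. Of 26 further miRNAs of the cluster, 2 were above background, each in 1 sample: miR-1188 in treated replicate 1 (1.53 times) and miR-1193 in control replicate 3 (1.21 times). Of 9 miRNAs from other imprinted loci, 3 (33.3%) were above background in at least 3 samples, close to the 32.9% of all probes. MiR-483, which lies in an intron of Igf2, was in 5 of 6, at 1.61, 1.27 and 1.17 times in control and 3.48, 1.26 and 1.89 times in treated replicates 1, 2 and 3. MiR-335-5p, of the Mest gene, and miR-296-5p, of the Gnas domain, were in 3 samples each, the former at up to 1.87 times. Of the neuronal miRNAs, with which the cluster shares the adult brain as a site of expression, miR-9 and miR-128 were above background in at least 3 samples and miR-124 in none. Of miRNAs known from other cell types, 2 of 3 of red blood cells, 3 of 6 of leukocytes, 5 of 5 of vascular and mesenchymal cells, 1 of 1 of liver and 0 of 4 of striated muscle were above background in at least 3 samples. The liver miRNA, miR-122, was so in treated replicates 1, 2 and 3 (1.28, 1.21 and 1.62 times) and in no control (1.17, 1.19 and 1.13 times). All 4 of striated muscle were above background in control replicate 1, at 1.33 to 4.03 times the empty spots, against 1 of 4 in control replicate 3 and treated replicate 1 and none in the other samples.

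**Figure D5:**
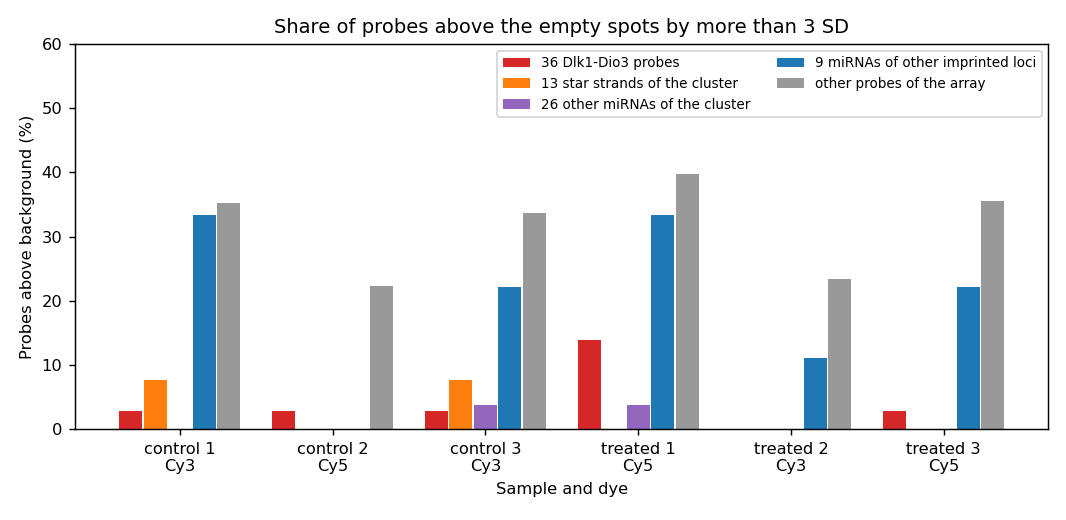
Share of probes above background (vertical, percent) in each sample (horizontal, with dye) for the 36 cluster probes, the 13 star strands, 26 further miRNAs of the cluster, 9 miRNAs of other imprinted loci and all 563 probes outside the 36, the smaller lists included. The share of cluster probes was 0% to 13.9% in a sample and that of the other probes 22.4% to 39.8%.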

How the data were processed

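Small RNA of renal cortex from 6 mice was hybridised by a service provider, per the labels' protocols. The deposited spot tables give, per the file headers, the mean intensity of 3968 spots and the SD within each spot, on a linear scale without background subtraction. The authors also deposited processed intensity values of the 599 miRNAs, in whole numbers, whose scale and centring stay unknown. These served as an alternative, as log2(value + 16).

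In R 4.3.3 with limma 3.58.1, detection used the log2 of the deposited intensity. For the fit, spots were corrected with normexp (offset 50), averaged as log2 over 5 spots and quantile-normalised over all 599 probes. The fit covered 197 miRNAs, those above background in 3 samples or more (lmFit, eBayes, two-sided; group and dye), with Benjamini-Hochberg adjustment over all 197. The number of arrays limits the precision. The fit was tested on simulated data. Across miRNAs, control and treated samples of the same number deviated together from the means of their groups (r = 0.447, 0.460 and 0.781). Other pairs of a control and a treated sample gave r of -0.572 to 0.256. Deviations from a group mean are tied to each other, so these r are not independent. The numbers were taken as pairs from the data, and the labels do not say what they mark. The fit above has no term for these pairs, and the replicate block was run as an alternative only. Dyes were opposite in each same-numbered pair, and Spearman's rho between the empty spots of such a pair was 0.494, 0.529 and 0.356. Those of other pairs of a control and a treated sample gave -0.0109 to 0.418. The design text gives 1 replicate per array.

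The members and lists were chosen with earlier results of these data known. Every member above background in any sample is named with its values in all 6 samples; the other members are given by range, and those named among them were picked after their values were seen, for their known biology or position. MiR-192 and miR-204 were fixed for scale. Alternatives covered the background correction, normalisation, filter, dye term, replicate block, detection rule and each sample left out. The dye difference and the checks around the miR-377 spots were added after seeing the data. No slide or scan is named in the file headers, so that alternative was not run.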

Additional observations from a re-analysis of the deposited data

How the results depend on the processing

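No miRNA of the fit, and thus no member, passed an adjusted p of 0.05 in limma under any of the 17 alternatives, among them the replicate block (0 of 197; 15 with an unadjusted p under 0.05, against 1 without the block, where miR-377 had an adjusted p = 0.287), which changed no call. The differences of miR-377 and miR-329 kept their sign under all 17. Members above background in at least 3 samples, 2 by the rule used, numbered 5 at 2 SD or over the 99th percentile of the empty spots, 0 at 5 SD, and 1 with the median of the 5 spots, with at least 4 of 5 spots over the threshold, or on background-corrected intensity. Members above background in at least 1 sample, 5 by the rule used, numbered 17 at 2 SD and over the 99th percentile, 1 at 5 SD and 3 with at least 4 of 5 spots. They numbered 5 on background-corrected intensity and 6 with the median of the 5 spots, which added miR-127. With a sample left out, the first count ran from 0 to 2 (0 without treated replicate 1; 1 without control replicate 1, 2 or 3 or treated replicate 3) and the second from 2 to 5 (2 without treated replicate 1). Over the same alternatives of the rule, the other probes ran from 27.7% to 42.1% and from 36.6% to 64.3%. The slide or scan as a block was not run, as the headers name none. Members within a few percent of the empty spots give no order among themselves. A level under 1.16 to 1.31 times the empty spots was not called above background by the rule used.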
